A study of Mus musculus with 9 samples.

Results

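AMPA receptors are the glutamate-gated channels that carry most fast excitatory transmission in the brain. The channel is built from subunits encoded by Gria1, Gria2, Gria3 and Gria4, and auxiliary membrane proteins of the TARP, cornichon and Shisa families bind the subunits and set how many receptors reach the synapse and how they open and close. In the piriform cortex, the paleocortical area that receives direct input from the olfactory bulb, they act at the synapses of bulb axons and of associational fibres on the dendrites of excitatory neurons.

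Messenger RNA of 10 genes was followed across the piriform layers, namely the 4 subunit genes, the TARP genes Cacng2, Cacng3 and Cacng8, the cornichon genes Cnih2 and Cnih3, and Shisa7. The genes were listed by name, and each was read from its Ensembl transcript with the highest mean count over the 9 samples. Of the 10 genes, 9 had a transcript and were tested, and Cacng8 was not analysed here. The count tables held transcripts of 33965 annotated genes, of which 15177 had a tested transcript. Every member passed the filter on low counts, and the lowest count of any member in any sample was 72, for Cacng3 in layer A replicate 1.

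The samples were piriform cortex of wild type C57BL/6 mice, labelled as 8 weeks old, with no treatment or transgene named. The study's methods state an older age. The layers were cut from fresh-frozen sections with a laser that excises a chosen area (laser-capture micro-dissection), and RNA was sequenced from 3 samples of each layer. The layers are labelled A, B and C, and no key from these letters to layers I, II and III was found in the labels or the methods, so the letters are kept. How many mice were pooled, and whether the replicates of a layer came from different mice, is not given in the sources used here. The p-values therefore measure only the spread between these samples, which may be technical, and are too small if replicates share an animal.

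Total counts ranged from 23104306 to 76471683 per sample. Mitochondrial ribosomal RNA took 55.3 to 70.2% of the counts in layer A, 12.8 to 28.1% in B and 20.5 to 57.1% in C, and layer A replicates 1 and 2 held the fewest non-mitochondrial counts. Layer B replicate 3 correlated with the other layer B samples at 0.888 and 0.88, against 0.978 between those other samples. Layer C replicate 2, the sample with 57.1% mitochondrial ribosomal RNA, correlated with layer C replicates 1 and 3 at 0.927 and 0.905, against 0.960 between those. All 10 pan-neuronal markers were detected in all layers, but their summed level was 882 to 1487 normalized CPM (counts scaled to a common library size, with TMM factors) in layer A, 2347 to 6189 in B and 2787 to 3675 in C. In layer A, 9 of the 10 fell relative to layer B and 7 relative to layer C (edgeR's quasi-likelihood test, adjusted p under 0.05). Among all tested transcripts, 5.83% were called lower in layer A than in B and 4.35% lower than in C. The glutamatergic markers summed to 100.4 to 187 normalized CPM in layer A, 290 to 406 in B and 221 to 340 in C, and their member Emx1 had no count in layer C replicate 2. Of these 7 markers, 2 fell in layer A relative to layer B, 4 fell relative to layer C and none rose. The summed level of the GABAergic markers was 194 to 355 normalized CPM in layer A, 57.2 to 289 in B and 181 to 288 in C, with no Pvalb count in layer A replicate 1. Single GABAergic markers went both ways. Of these 8 markers, 1 rose and none fell in layer A relative to layer B, beside 10.7% of all transcripts called higher. Relative to layer C, 2 fell and none rose.

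Most glial and vascular markers moved the other way from the pan-neuronal markers. All 10 astrocyte markers rose in layer A relative to layer B, and their summed level was 4945 to 10443 normalized CPM in layer A, 684 to 1145 in B and 1219 to 1675 in C. Relative to layer B, 4 of 4 oligodendrocyte precursor, 5 of 7 microglial, 6 of 6 endothelial, 6 of 6 meningeal and 2 of 8 oligodendrocyte markers also rose in layer A. Relative to layer C the numbers were 10 of 10 astrocyte, 3 of 4 oligodendrocyte precursor, 5 of 7 microglial, 5 of 6 endothelial, 6 of 6 meningeal and 0 of 8 oligodendrocyte markers. Among all tested transcripts, 10.7% were called higher in layer A than in B and 6.98% higher than in C. Meningeal markers summed to 39.2 to 100.4 normalized CPM in layer A and to 0.584 to 3.18 in layer B, and their member Myoc had no count in layer B replicate 2 or in layer C replicates 1 and 2. The part of these other cells in the differences of the AMPA receptor genes was not tested. In tissue of this kind, fewer neurons and less RNA of a gene per neuron cannot be told apart.

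The subunits are related proteins with an RNA editing site in the pore. The genome encodes glutamine there in all of them, and the Gria2 messenger is edited almost completely to encode arginine, which makes receptors containing it nearly impermeable to calcium. The stretch around this codon is printed because Gria2 is the reference of the subunit ratios below and because it shows how alike the counted sequences are. Each run has 63 bases of the coding strand, taken from GENCODE transcripts of GRCm38, with the codon in capitals.
Gria1: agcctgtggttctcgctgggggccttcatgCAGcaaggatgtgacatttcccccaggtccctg
Gria2: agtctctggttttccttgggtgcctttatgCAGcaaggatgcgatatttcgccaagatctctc
Gria3: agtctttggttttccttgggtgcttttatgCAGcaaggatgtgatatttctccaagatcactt
Gria4: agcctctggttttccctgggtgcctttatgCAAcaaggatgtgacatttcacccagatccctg
The codons lie at chr11:57243094-57243096 on the plus strand in exon 11 of Gria1, at chr3:80706911-80706913 on the minus strand in exon 11 of Gria2, at chrX:41610265-41610267 on the plus strand in exon 11 of the coding Gria3 transcript ENSMUST00000076349, and at chr9:4464137-4464139 on the minus strand in exon 12 of Gria4. The Gria2 and Gria3 runs differed at 6 of 63 bases, those of Gria1 and Gria4 at 8, and those of Gria1 and Gria2 at 14. Whole transcripts were compared by another measure, the 50-base stretches found unchanged in another gene. Of all 50-base stretches, 7 of 10322 in Gria2, 8 of 5123 in Gria3 and 6 of 5303 in Gria4 occurred in another gene, and none of those in Gria1 did. Editing cannot be read from counts and was not analysed here.

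The TARPs are anchored at the synapse by a PDZ-binding motif at their carboxyl end. The ends of the coding sequences of Cacng2 and Cacng3 are shown because the ratio of these related genes within each sample is described below. Each run has 45 bases up to and including the stop codon, with the last 4 codons in capitals.
Cacng2: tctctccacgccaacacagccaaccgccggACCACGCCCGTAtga
Cacng3: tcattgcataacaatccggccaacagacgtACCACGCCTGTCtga
The capitals lie at chr15:77995152-77995163 on the minus strand in exon 4 of Cacng2 and at chr7:122768832-122768843 on the plus strand in exon 4 of Cacng3 (GRCm38). They encode the same residues in both genes, and the runs differed at 14 of 45 bases. No 50-base stretch of Cacng3 occurred in another gene. In Cacng2, 5.86% of them did, spread over 659 genes.

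Relative to all transcripts, most AMPA receptor genes were lower in layer A than in the other layers, and no member passed the test between layers B and C. Of the 9 measured members, 6 fell in layer A relative to layer B and 7 relative to layer C, and none rose (edgeR's quasi-likelihood test, adjusted p under 0.05). Among all 56416 tested transcripts, 5.83% were called lower in layer A than in B and 4.35% lower in layer A than in C. The median log2 fold change of the members was -1.18 for layer A against B and -1.49 between layers A and C, beside -0.12 and -0.01 for all tested transcripts. When libraries were instead scaled to pan-neuronal markers, these medians were 0.28 and -0.03 beside 1.40 and 1.49 for all transcripts, and the direction of several members turned, as given below. Tested over the 3 layers at once, 7 of the 9 members, all but Gria4 and Cnih2, and 14.3% of all transcripts were called. The comparisons of layer A with layers B and C share the layer A samples.

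**Figure D1:**
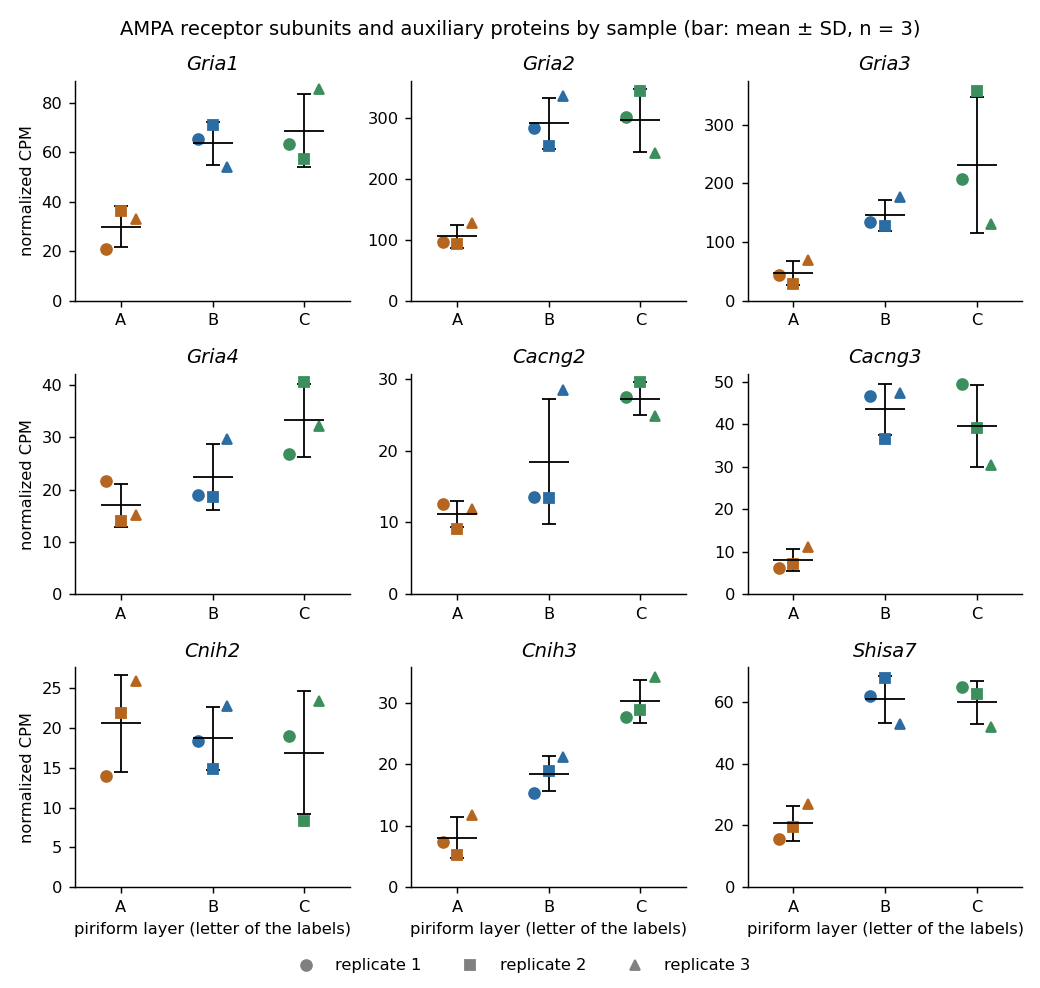
Normalized CPM (vertical axes, linear, starting at 0) of the 9 measured members in the 3 samples of layers A, B and C (horizontal axes). Circles, squares and triangles are replicates 1, 2 and 3, and bars give the mean ± SD. On this scale every layer A sample lay below every layer B sample for 7 of 9 members, Gria4 and Cnih2 being the exceptions. The same separation was seen in 15.1% of all tested transcripts.

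Gria2, the subunit that limits calcium entry, is encoded on chromosome 3 from 80681450 to 80802835 on the minus strand, and its chosen transcript ENSMUST00000075316 has 16 exons. It measured 97.0, 92.9 and 127 normalized CPM in layer A replicates 1, 2 and 3, 283, 254 and 336 in B, and 302, 345 and 242 in C. Each layer A sample was below each sample of the other layers, a separation in this direction that 15.1% of all transcripts showed against layer B and 14.5% against layer C. Layer B and layer C overlapped. Gria2 fell in layer A by 1.46 ± 0.28 (SE) on the log2 scale relative to layer B (adjusted p = 0.00260) and by 1.49 ± 0.28 relative to layer C (adjusted p = 0.00500, both edgeR's quasi-likelihood test). Both calls held in every alternative and without each sample, but neither passed with pan-neuronal scaling, which is reported apart below.

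Gria1, the subunit whose insertion accompanies long-term potentiation at many synapses, lies on chromosome 11 from 57011810 to 57330244 on the plus strand (ENSMUST00000036315, 16 exons). In layer A it stood at 20.7, 36.3 and 32.9 normalized CPM, in layer B at 65.5, 71.2 and 54.2, and in layer C at 63.2, 57.4 and 85.6. No layer A sample reached the lowest sample of the other layers. Gria1 fell in layer A by 1.08 ± 0.30 on the log2 scale relative to layer B (adjusted p = 0.0220, edgeR's quasi-likelihood test) and by 1.20 ± 0.30 relative to layer C (adjusted p = 0.0198). These calls were less firm than those of Gria2. The adjusted p between layers A and B was 0.0976 without layer A replicate 1, 0.0863 without layer B replicate 1, 0.0784 without layer B replicate 2 and 0.0509 in a fit of the 6 samples alone. Between layers A and C it was 0.0842 without layer A replicate 1, 0.0748 without layer C replicate 1 and 0.0773 without layer C replicate 3.

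Gria3 is X-linked (chromosome X, 41401436 to 41678598, plus strand), and its transcript with the highest count, ENSMUST00000139965 with 17 exons, is annotated as a target of nonsense-mediated decay. The coding transcript ENSMUST00000076349 had 99.9% of its mean count, and counts on the shared exons cannot be assigned to either. Gria3 was measured at 43.8, 29.3 and 70.2 normalized CPM in layer A, 135, 126 and 176 in B, and 207, 358 and 130 in C. Layer A was again the lowest in every sample, and the layer C samples were widely spread, replicate 2 being the highest and replicate 3 within the range of layer B. The fall in layer A was 1.61 ± 0.39 on the log2 scale against layer B (adjusted p = 0.0109, edgeR's quasi-likelihood test) and 2.28 ± 0.40 against layer C (adjusted p = 0.00370). The call between layers A and B was lost without layer A replicate 1 (adjusted p = 0.0527) and without layer A replicate 2 (0.0607). All 9 Gria3 transcripts were called lower in layer A in both comparisons. Several of them had nearly equal mean counts, such as 3832 and 3781 for the transcripts ranked 3 and 4, so these calls are not independent of each other.

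Gria4, a subunit with fast kinetics that is prominent in interneurons, lies on chromosome 9 from 4417896 to 4796142 on the minus strand (ENSMUST00000063508, 17 exons). It read 21.7, 14.03 and 15.1 normalized CPM in layer A, 19.0, 18.6 and 29.8 in B, and 26.8, 40.7 and 32.3 in C. Layer A replicate 1 exceeded 2 of the 3 layer B samples, whereas all layer A samples were below all layer C samples. The log2 fold change of layer A against B was -0.41 (95% interval -1.08 to 0.26, adjusted p = 0.431), and that between layers A and C was -0.97 (-1.65 to -0.30, adjusted p = 0.0607), neither passing edgeR's quasi-likelihood test. The latter passed in 6 of 11 alternatives, for example with an adjusted p of 0.0447 in DESeq2, and without layer B replicate 3 (0.0226). Among those 11, choosing the transcript by mean CPM repeated the main fit.

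Among the TARPs, Cacng3 (chromosome 7, 122670492 to 122769393, plus strand, ENSMUST00000084615, 4 exons) had the lowest layer A level relative to the other layers. It measured 6.10, 7.01 and 10.97 normalized CPM in layer A, 46.7, 36.6 and 47.3 in B, and 49.6, 39.0 and 30.4 in C. The highest layer A sample was under the lowest sample of the other layers by more than the whole range of layer A. Cacng3 fell in layer A by 2.29 ± 0.33 on the log2 scale relative to layer C (adjusted p = 0.00180, edgeR's quasi-likelihood test), beside 2.43 ± 0.33 relative to layer B (adjusted p = 0.000292). Leaving out any sample kept both calls, with log2 fold changes between -2.71 and -2.26 against layer B and between -2.58 and -2.11 against layer C.

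Cacng2, the TARP known as stargazin, which delivers AMPA receptors to the cell surface, lies on chromosome 15 from 77991748 to 78120028 on the minus strand (ENSMUST00000019290, 4 exons). Its normalized CPM were 12.5, 9.08 and 11.9 in layer A, 13.5, 13.4 and 28.5 in B, and 27.5, 29.5 and 24.8 in C. Layer B replicate 3 stood with layer C, while layer B replicates 1 and 2 were only slightly above layer A replicate 1. The log2 fold change of layer A against B was -0.73 (95% interval -1.45 to -0.0031, adjusted p = 0.170, edgeR's quasi-likelihood test), so no call was made. Cacng2 fell in layer A relative to layer C by 1.29 ± 0.34 on the log2 scale (adjusted p = 0.0251). That call was lost without layer A replicate 1 (adjusted p = 0.0643), replicate 2 (0.108) or replicate 3 (0.0582), and without layer C replicate 1 (0.102) or replicate 2 (0.0710).

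The cornichons, which slow the closing of the channel and favour its export from the endoplasmic reticulum, are represented by Cnih2 and Cnih3. Cnih2 (chromosome 19, 5092868 to 5098521, minus strand, ENSMUST00000025805, 6 exons) measured 13.97, 21.9 and 25.9 normalized CPM in layer A, 18.4, 14.9 and 22.8 in B, and 19.0, 8.36 and 23.4 in C. All layers overlapped. Its log2 fold change was 0.14 (95% interval -0.66 to 0.95, adjusted p = 0.847) between layers A and B and 0.28 (-0.52 to 1.09, adjusted p = 0.721) between layers A and C by edgeR's quasi-likelihood test. These values changed sign when layer A replicate 3 was left out of the comparison with layer B (-0.04), and when layer C replicate 2 was left out of the comparison with layer C (-0.04).

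Cnih3 (chromosome 1, 181352630 to 181460641, plus strand, ENSMUST00000027795, 6 exons) stood at 7.28, 5.21 and 11.7 normalized CPM in layer A, 15.4, 18.9 and 21.1 in B, and 27.6, 28.8 and 34.3 in C. It was the only member whose samples did not overlap between any pair of layers, with layer A lowest and layer C highest. Cnih3 fell in layer A by 1.18 ± 0.33 on the log2 scale relative to layer B (adjusted p = 0.0231, edgeR's quasi-likelihood test) and by 1.89 ± 0.34 relative to layer C (adjusted p = 0.00393). The call against layer B was lost without layer A replicate 1 (adjusted p = 0.0862), layer A replicate 2 (0.109) or layer B replicate 2 (0.0577) and in a fit of the 6 samples alone (0.0605).

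Shisa7, an auxiliary protein of the Shisa family that also acts on GABA-A receptors, lies on chromosome 7 from 4825553 to 4844696 on the minus strand (ENSMUST00000066041, 6 exons). It gave 15.7, 19.4 and 26.8 normalized CPM in layer A, 62.0, 68.0 and 52.8 in B, and 64.9, 62.8 and 52.0 in C. Layer A was the lowest in every sample, and layers B and C covered nearly the same range. Shisa7 fell in layer A by 1.56 ± 0.29 on the log2 scale relative to layer B (adjusted p = 0.00231, edgeR's quasi-likelihood test) and by 1.53 ± 0.29 relative to layer C (adjusted p = 0.00534). These calls held in every alternative and without each sample, but not with pan-neuronal scaling.

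**Figure D2:**
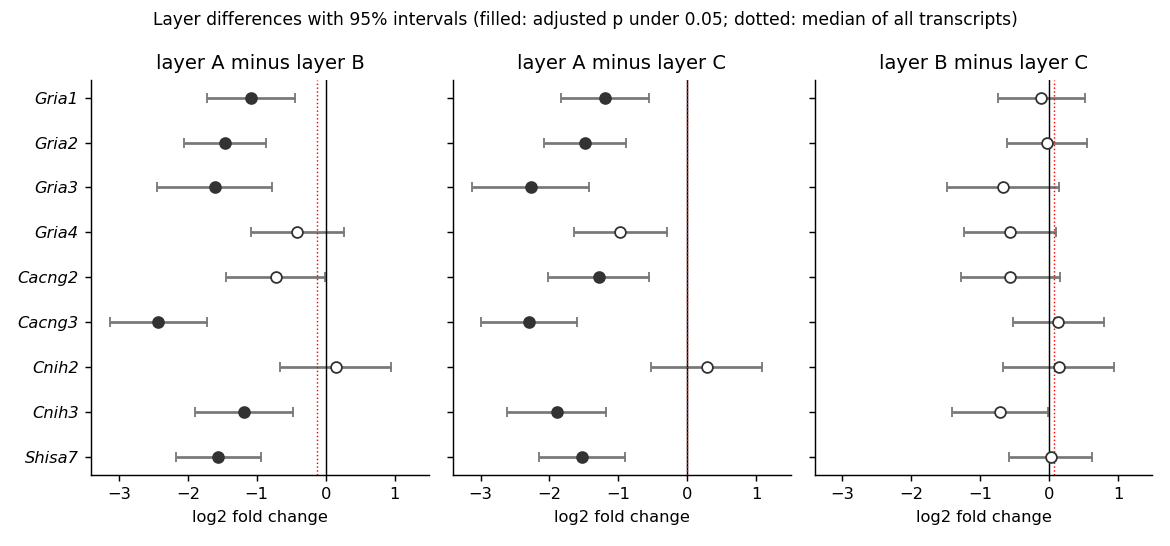
Log2 fold changes of the 9 members between layers A and B, A and C, and B and C (horizontal axes), with 95% intervals, TMM scaling. Filled points passed edgeR's quasi-likelihood test and dotted lines mark the median of all transcripts. In the comparisons of layer A, all members but Cnih2 lie to the left of it. Under pan-neuronal scaling (not drawn here) all but Cnih2 were likewise below the medians of all transcripts, 1.40 against B and 1.49 against C. Relative to 0 on that scale, only Gria3, Cacng3 and Shisa7 were lower in both comparisons.

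Between layers B and C, 0 of 9 members and 0% of all tested transcripts passed edgeR's quasi-likelihood test, whose smallest adjusted p over all transcripts was 0.0698, and DESeq2 also called 0 members. At an unadjusted p under 0.05, 4.11% of all transcripts passed, and of the members only Cnih3 did (edgeR's quasi-likelihood test, adjusted p = 1.00). Its log2 fold change was -0.71 (95% interval -1.40 to -0.016), and its layer B samples were all below its layer C samples, as were those of 4.67% of all transcripts. For Gria2 the log2 fold change was -0.02 with a 95% interval from -0.61 to 0.56, and for Shisa7 it was 0.03 with an interval from -0.58 to 0.63. For Gria3 it was -0.67 with an interval from -1.48 to 0.15. With intervals of this width, the absence of calls does not show that layers B and C held equal levels.

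Levels were compared between genes only per transcript length, as normalized CPM per kilobase. In layer A the order by mean was Cnih2 at 15.3 ± 4.53 (SD, n = 3), Gria2 at 10.2 ± 1.81, Gria3 at 9.23 ± 4.01, Gria1 at 5.41 ± 1.48, then Shisa7, Gria4, Cnih3, Cacng3 and Cacng2 between 3.44 and 2.03. Every gene overlapped with its neighbour in this order. In layer B, Gria3 at 28.2 ± 5.12 and Gria2 at 28.1 ± 3.99 stood above all others and overlapped with each other. They were followed by Cacng3, Cnih2, Gria1 and Shisa7 between 15.7 and 10.1, whose neighbours overlapped, then by Cnih3 at 6.93 ± 1.08, and by the overlapping Gria4 and Cacng2 at 4.198 ± 1.18 and 3.35 ± 1.58. Layer C had the same order of levels for the leading genes, with Gria3 at 44.8 ± 22.4 and Gria2 at 28.6 ± 4.95, and Cnih3 at 11.3 ± 1.34 stood among Cacng3, Cnih2, Gria1 and Shisa7. The position of Gria2 depends on the transcript taken. A second transcript of 4026 bases had 99.2% of the mean count of the chosen one of 10371 bases, and dividing by its length gave 26.3 ± 4.66 normalized CPM per kilobase in layer A, 72.4 ± 10.3 in B and 73.6 ± 12.8 in C. With that length the mean of Gria2 is the highest in every layer, above Cnih2 in layer A and above Gria3 in the others.

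The share of each subunit in the sum of the 4 subunits was taken per length in each sample. Gria2 made up 36.5, 37.7 and 35.5% in layer A, 39.8, 37.6 and 39.6% in B, and 34.0, 27.6 and 33.4% in C, so that layer C lay below the others in all samples. With the 4026-base Gria2 transcript these shares became 58.4 to 60.5%, 60.5 to 62.7% and 49.5 to 56.9%. Gria3 made up 23.8 to 39.2% in layer A, 37.4 to 41.6% in B and 36.0 to 57.4% in C. Gria4 was the smallest share in all samples but layer A replicate 1, at 15.8, 11.02 and 8.17% in layer A, 5.17, 5.33 and 6.80% in B, and 5.85, 6.32 and 8.604% in C.

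A ratio of genes within a sample does not depend on how libraries are scaled, but its size depends on the transcript lengths taken. Ratios to Gria2 use its 10371-base transcript. With the length of 4026 bases each would be lower by the same factor, 2.58, in every sample. Differences between layers are unchanged by this, but which gene of a pair is higher is not settled. Gria4 per Gria2 was 0.434, 0.293 and 0.231 in layer A, 0.130, 0.142 and 0.172 in B, and 0.172, 0.229 and 0.258 in C. Layer A was above layer B in every sample and overlapped with layer C. The ratio differed among the layers in a two-sided exact permutation test over the 9 samples (p = 0.0107, adjusted over the 3 subunit ratios 0.0321, with 0.00357 the smallest p possible). With a sample left out, the adjusted exact p ranged from 0.0107 to 0.161 and stayed under 0.05 only without layer A replicate 3 or layer C replicate 3. It was 0.107 without layer A replicate 1, 0.0964 without layer A replicate 2, 0.161 without layer B replicate 1 or 2, 0.0964 without layer B replicate 3, 0.0536 without layer C replicate 1 and 0.129 without layer C replicate 2.

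With the 10371-base Gria2 length, Gria3 per Gria2 was 0.905, 0.632 and 1.11 in layer A, 0.953, 0.996 and 1.05 in B, and 1.37, 2.08 and 1.08 in C. Layer C was above layer B in each sample, by little for replicate 3. The exact permutation test gave p = 0.0643 (adjusted 0.0964), and an adjusted p of 0.0321 without layer C replicate 3. Gria1 per Gria2 overlapped among all layers, with geometric means of 0.521 in layer A, 0.409 in B and 0.432 in C (exact permutation p = 0.654).

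Ratios within the auxiliary families were examined after the values had been seen and carry no test. Cacng3 per Cacng2, the TARPs with the shared carboxyl end, was 0.969, 1.53 and 1.83 in layer A, 6.84, 5.43 and 3.29 in B, and 3.58, 2.62 and 2.43 in C. All samples of layers B and C were above those of layer A. Cnih3 per Cnih2 was 0.263, 0.120 and 0.228 in layer A, 0.423, 0.638 and 0.467 in B, and 0.733, 1.73 and 0.738 in C, with no overlap between layers. Within layer C, Cnih3 exceeded Cnih2 per length only in replicate 2, the sample with the lowest Cnih2 level.

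**Figure D3:**
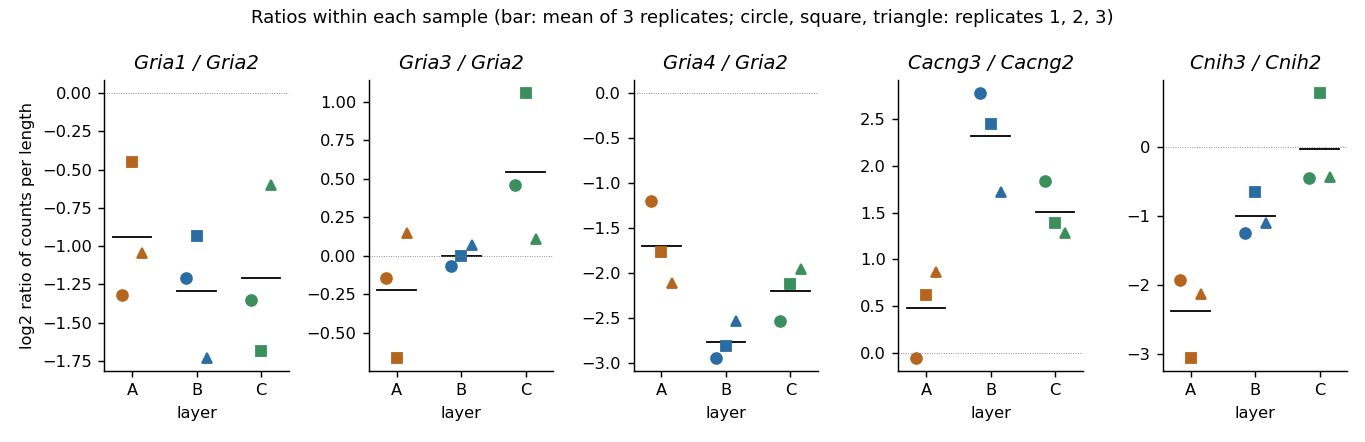
Log2 ratios of counts per length within each sample (vertical axes, each with its own range) by layer (horizontal axes), for 3 subunits against Gria2, Cacng3 against Cacng2 and Cnih3 against Cnih2. The Gria2 length is that of the 10371-base transcript, and a shorter one would shift all ratios to Gria2 down alike. Points are samples and bars are means of 3, and layer A stands above layer B in every sample for Gria4 to Gria2 and below both other layers for Cacng3 to Cacng2 and Cnih3 to Cnih2.

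As neuronal markers were lower in layer A, the members were also compared after scaling each library to the geometric mean count of 10 pan-neuronal markers, a list that shares no gene with the members. On this scale 44.9% of all tested transcripts were called higher in layer A than in B and 0.0266% lower, and 47.8% were called higher and 0.136% lower than in C. Of the 9 members, 2 rose in layer A relative to layer B, 1 rose relative to layer C and none fell. These are smaller shares than among all transcripts.

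Cnih2 rose in layer A by 1.69 ± 0.47 on the log2 scale relative to layer B (adjusted p = 0.00645) and by 1.78 ± 0.47 relative to layer C (adjusted p = 0.00517) in edgeR's quasi-likelihood test with pan-neuronal scaling. Its neuronally scaled CPM were 35.3, 53.0 and 35.2 in layer A, 15.2, 13.5 and 9.49 in B, and 12.6, 6.96 and 16.2 in C. Layer A was the highest in every sample, as in 55.9% of all transcripts against layer B and 59.5% against layer C, and both calls held in every alternative and without each sample. The differences are close to the medians of all transcripts on this scale, 1.40 and 1.49.

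Gria4 rose in layer A relative to layer B by 1.27 ± 0.48 on the log2 scale with pan-neuronal scaling (adjusted p = 0.0339, edgeR's quasi-likelihood test). It stood at 54.8, 34.0 and 20.6 neuronally scaled CPM in layer A, 15.8, 16.9 and 12.4 in B, and 17.7, 33.9 and 22.4 in C. Every layer A sample was above layer B, as in 55.9% of all transcripts, and layer A replicate 1 was far above the others. The median log2 fold change of all transcripts on this scale, 1.40, was above the value of Gria4. Its call was lost without layer A replicate 1 (adjusted p = 0.173), layer A replicate 2 (0.0676), layer B replicate 1 (0.0872), replicate 2 (0.0600) or replicate 3 (0.0690), without layer C replicate 1 (0.0507) and with the 6 samples alone (0.0642).

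Cacng3 was the member with the lowest layer A value against layer B on this scale too, at -0.96 on the log2 scale (95% interval -1.89 to -0.03, adjusted p = 0.0838, edgeR's quasi-likelihood test), which did not pass. Its neuronally scaled CPM were 15.4, 17.0 and 14.9 in layer A, 38.8, 33.2 and 19.7 in B, and 32.9, 32.5 and 21.1 in C. All layer A samples were thus below all others, as in 0.31% of all transcripts against layer B and in 0.498% against layer C. The difference passed without layer B replicate 3 (adjusted p = 0.0341) and in DESeq2 (0.0455). Against layer C its log2 fold change was -0.87 (-1.80 to 0.06, adjusted p = 0.105).

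None of the other members passed with pan-neuronal scaling in edgeR's quasi-likelihood test. Gria2 had log2 fold changes of 0.08 (95% interval -0.87 to 1.04) between layers A and B and -0.03 (-0.98 to 0.93) between layers A and C. Those of Gria1 were 0.38 and 0.31, those of Shisa7 -0.14 and -0.09, and those of Cnih3 0.28 and -0.49. Gria3 stood at -0.12 and -0.92 (adjusted p = 0.117). Cacng2 was at 0.98 (adjusted p = 0.0741) and 0.21, and its difference between layers A and B passed in DESeq2 (adjusted p = 0.0355), with the highest transcript of each gene (0.0493) and without layer A replicate 3 (0.0234). None of the falls found relative to all transcripts passed relative to neuronal markers in this fit, which does not show that levels were equal on that scale.

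**Figure D4:**
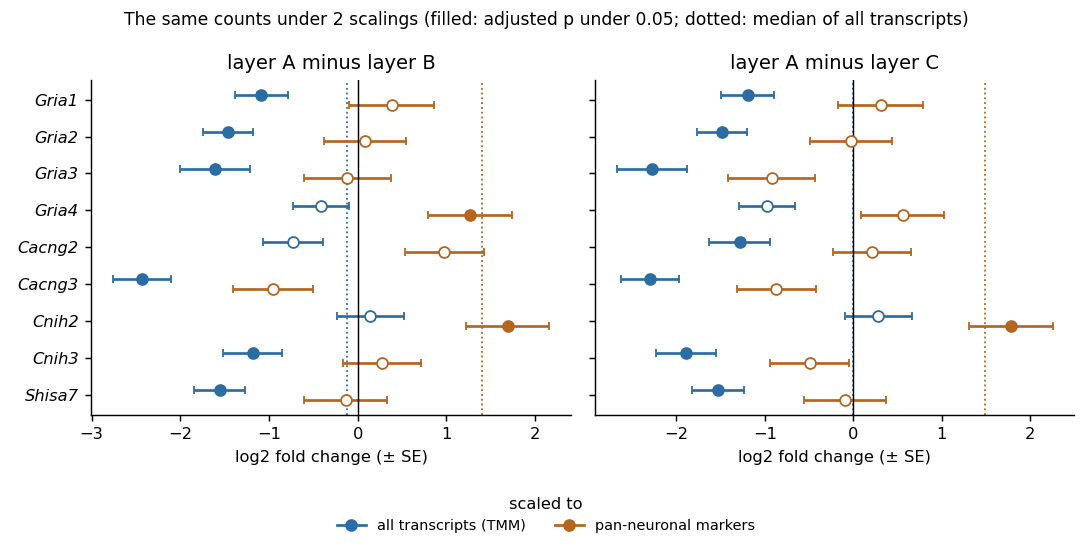
Log2 fold changes ± SE of the 9 members between layers A and B and between layers A and C (horizontal axes) with libraries scaled to all transcripts (TMM) or to pan-neuronal markers. Filled points passed edgeR's quasi-likelihood test, dotted lines mark the median of all transcripts, and with pan-neuronal scaling the filled points are those of Cnih2 in both panels and Gria4 against layer B, all above 0.

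Across the 9 samples, the log2 normalized CPM of Gria2 and Cacng3 moved closely together (Pearson r = 0.984), as did those of Cacng3 and Shisa7 (r = 0.978). Cnih2 followed none of the members, with r between -0.475 and 0.00933, and Gria4 was most like Cacng2 (r = 0.931). All of these values share libraries and scaling, and the layer difference enters each of them. Among 4411 other genes with a mean of at least 10 CPM, the 3 most like Gria2 were Gabbr2 (r = 0.997), Btbd8 (0.996) and Tcaf1 (0.992). Those most like Cacng3 were Btrc (0.991), 2900011O08Rik (0.988), Smap2 (0.988), Vps53 (0.987) and Gng3 (0.987).

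Other genes that assemble, modify or cluster AMPA receptors showed the same direction on the TMM scale for the most part. Of 15 such genes tested, 8 fell and 1 rose in layer A relative to layer B, and 6 fell and none rose relative to layer C (edgeR's quasi-likelihood test). Over all transcripts, 5.83% were called lower and 10.7% higher in layer A than in B, and 4.35% lower and 6.98% higher than in C. The median log2 fold changes of the 15 genes were -1.17 and -1.08, beside 0.29 and 0.32 with pan-neuronal scaling. Cacng7 and Shisa8 were not analysed here.

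The neuronal pentraxins are secreted proteins that gather AMPA receptors at synapses, and Nptx2 and Nptx1 had the lowest log2 fold changes of this list between layers A and B. Nptx2, an activity-regulated pentraxin, averaged 2.86 normalized CPM in layer A, 19.2 in B and 9.20 in C, and fell by 2.71 ± 0.53 on the log2 scale relative to layer B (adjusted p = 0.00287, edgeR's quasi-likelihood test). Nptx1 fell by 2.18 ± 0.33 relative to layer B (adjusted p = 0.000592), and the pentraxin receptor gene Nptxr fell by 1.61 ± 0.37 (adjusted p = 0.00747). Relative to layer C, Nptx1 fell by 1.49 and Nptx2 by 1.64 (adjusted p = 0.00951 and 0.0496), whereas Nptxr was at -1.01 (adjusted p = 0.0883). With pan-neuronal scaling none of the pentraxin genes passed between layers A and B, Nptx2 being at -1.09 (adjusted p = 0.0603).

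The auxiliary genes of this same list, already counted above, gave both directions. Cacng4, a TARP gene, rose in layer A by 1.48 ± 0.38 on the log2 scale relative to layer B (adjusted p = 0.0135, edgeR's quasi-likelihood test), from a mean of 5.70 to 15.9 normalized CPM, and was at 0.90 relative to layer C (adjusted p = 0.142). Cacng5 fell by 1.25 relative to layer B and by 1.14 relative to layer C (adjusted p = 0.0187 and 0.0405). Gsg1l, which encodes an auxiliary subunit that reduces receptor currents, fell by 2.07 relative to layer B (adjusted p = 0.00941) and was at -1.55 relative to layer C (adjusted p = 0.0510). Shisa6 fell by 1.87 relative to layer C (adjusted p = 0.0134) and was at -0.60 relative to layer B (adjusted p = 0.383).

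Of the genes of receptor assembly and modification, Frrs1l, Prrt1 and Syndig1 passed in at least 1 comparison, whereas Cnih1, Cpt1c, Porcn and Abhd6 passed in none on the TMM scale. Frrs1l, which encodes an assembly factor of the endoplasmic reticulum, fell by 1.17 relative to layer B and by 1.27 relative to layer C (adjusted p = 0.0161 and 0.0162, edgeR's quasi-likelihood test). Prrt1, also known as SynDIG4, fell by 1.65 and 1.51 (adjusted p = 0.0112 and 0.0251). Syndig1 fell by 1.82 relative to layer B (adjusted p = 0.0459) from a low level of 3.28 normalized CPM in layer B to 0.853 in layer A, and was at -1.08 relative to layer C (adjusted p = 0.280). None of Frrs1l, Prrt1 and Syndig1 was called between layers B and C, nor with pan-neuronal scaling.

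Anchoring, trafficking and RNA editing genes were less uniform. Of 13 tested, 4 fell and 2 rose in layer A relative to layer B, and 3 fell and none rose relative to layer C, beside 5.83% of all transcripts called lower and 10.7% called higher than in B, and 4.35% and 6.98% against C. The median log2 fold changes of the list were -0.49 and -0.56, but 1.14 and 0.91 with pan-neuronal scaling. Dlg2, which encodes the postsynaptic scaffold PSD-93, rose by 1.49 ± 0.32 relative to layer B (adjusted p = 0.00540, edgeR's quasi-likelihood test), with means of 303 and 107 normalized CPM, and was at 1.02 relative to layer C (adjusted p = 0.050003, just outside the threshold). Epb41l1, the cytoskeletal linker 4.1N, rose by 0.96 ± 0.30 relative to layer B (adjusted p = 0.0417).

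Dlg3, which encodes the scaffold SAP102, fell by 1.67 relative to layer B and by 1.25 relative to layer C (adjusted p = 0.00245 and 0.0190, edgeR's quasi-likelihood test). Nsf, the ATPase that binds the GRIA2 tail, fell by 1.60 and 1.53 (adjusted p = 0.00241 and 0.00622). Akap5, an anchor of kinases and phosphatases at the receptor, fell by 1.60 and 1.53 (adjusted p = 0.00303 and 0.00770). Adar, which encodes an RNA-editing enzyme, fell by 1.15 relative to layer B (adjusted p = 0.0144) and was at -0.85 relative to layer C (adjusted p = 0.0775). With pan-neuronal scaling none of these 4 genes passed, Adar being at 0.29 and 0.61 and Dlg3 at -0.07 and 0.22.

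With pan-neuronal scaling, on which 44.9% of all transcripts were called higher in layer A than in B and 47.8% higher than in C, 6 of the 13 anchoring, trafficking and editing genes were called higher in each comparison and none lower (edgeR's quasi-likelihood test). Against layer B these were Dlg2 (log2 fold change 3.13), Epb41l1 (2.59), Dlg4 (2.28), Grip1 (1.76), Grip2 (1.64) and Adarb1 (1.53). Against layer C they were Dlg2 (2.64), Epb41l1 (2.19), Dlg4 (2.11), Adarb1 (1.95), Pick1 (1.29) and Dlg1 (1.29). Of the 15 auxiliary, assembly and clustering genes, 3 were called higher in layer A than in B, namely Cacng4 (3.21), Shisa9 (1.64) and Cnih1 (1.37), 2 higher than in C, namely Cacng4 (2.56) and Cnih1 (1.63), and none lower.

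**Figure D5:**
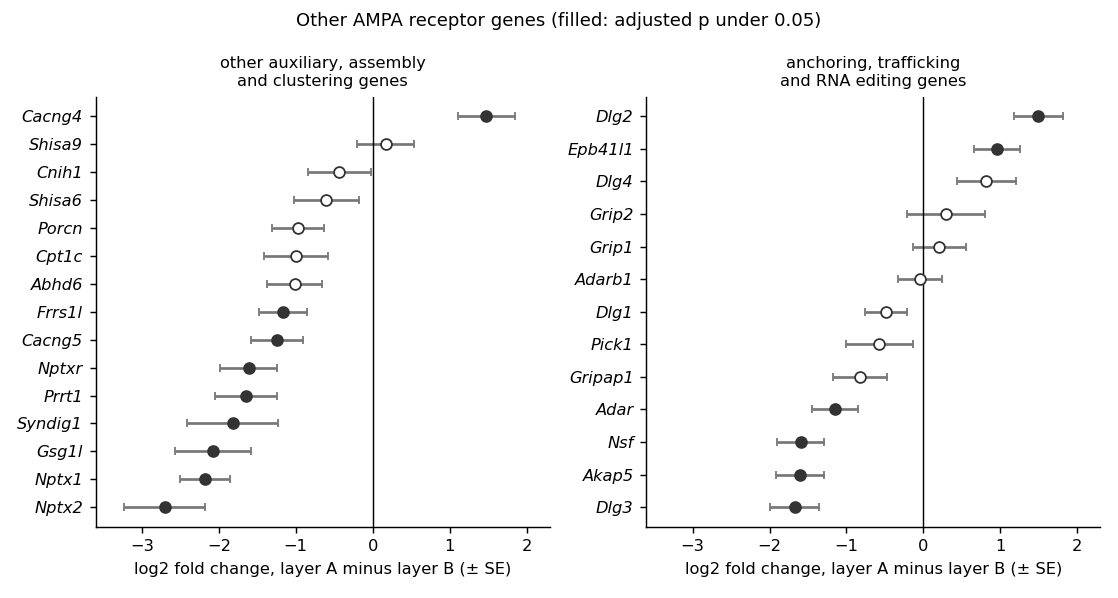
Log2 fold changes ± SE between layers A and B (horizontal axes, TMM scaling) of 15 other auxiliary, assembly and clustering genes and of 13 anchoring, trafficking and RNA editing genes. Filled points passed edgeR's quasi-likelihood test, and 8 of the 15 and 4 of the 13 were called lower in layer A, beside 5.83% of all transcripts. None of these genes was called lower with pan-neuronal scaling, on which 0.0266% of all transcripts were.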

How the data were processed

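RNA was isolated from laser-captured tissue of the piriform layers, amplified with the Ovation system and made into strand non-specific libraries. Paired-end reads were aligned with Bowtie to mm10, and the submitters' processing notes also name HTSeq 0.5.3 and bcl2fastq 1.8.4. The authors deposited raw counts per Ensembl transcript, 95533 per sample, without normalization. How reads shared by overlapping transcripts were counted, and the Ensembl release, are not given in the sources used here. Amplified reads without molecular identifiers are not independent molecules. Identifiers were joined to GENCODE M21 (GRCm38), which held 82807 of them. Cacng8, Cacng7 and Shisa8 were not analysed here.

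A transcript was kept if 3 or more samples reached 10 counts (56416 transcripts). Layers were compared by the quasi-likelihood F-test of edgeR 4.0.16 (R 4.3.3) with TMM factors and all 9 samples in the fit, with Benjamini-Hochberg adjustment over all of them and a threshold of 0.05. Standard errors are the log2 fold change over the square root of F. Ratios are of counts plus 0.5 per length, tested by exact permutation over 1680 assignments. At these depths 3 counts, taken as a floor, equal 0.0256 to 0.254 normalized CPM. Samples were grouped by the letters of their labels. On simulated counts with 200 changed transcripts (log2 fold change 2), the comparison of layers A and B found 68% of them and made 6 false calls among 54683 transcripts. That of layers A and C found 65.5% with 11 false calls, and that of B and C 68% with 7. Changes were placed only above a minimum level, and all other transcripts were equal between layers. The simulation therefore does not measure the error rate in the real samples.

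The members, gene lists, tests and alternatives were chosen with earlier results of these data known. Of the other AMPA receptor genes, each one called between some pair of layers on either scale is named, and cell type markers are given as counts and ranges. For Gria2 and Cacng3 the 5 genes with the highest Pearson correlation were taken, and some of those for Gria2 are not reported here. Alternatives were other scaling factors, DESeq2 1.42.0, other filters on low counts, the replicate number as a block, the 6 samples of a pair of layers alone, 1 transcript or a sum per gene, no mitochondrial transcripts and each sample left out. Choosing transcripts by mean CPM was also counted, but it gave the same transcript for each member and so repeated the main fit. Pan-neuronal scaling is reported apart and is not counted as an alternative. Dividing by the shortest transcript with at least 90% of the top count was added after seeing the data.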

Additional observations from a re-analysis of the deposited data

How the results depend on the processing

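The calls of Gria2, Cacng3 and Shisa7 relative to both layers, and of Gria3 and Cnih3 relative to layer C, held in all alternatives and without each sample. None of them passed edgeR's quasi-likelihood test with pan-neuronal scaling, which is not counted among these alternatives. The number of members called ranged over the alternatives from 4 to 6 between layers A and B, from 7 to 8 between layers A and C and from 6 to 8 among the 3 layers (7 as reported), and was 0 between layers B and C. With a sample left out these ranges were 3 to 6, 5 to 8, 5 to 8 and 0, the lowest count between layers A and B being that without layer A replicate 1. With pan-neuronal scaling the count between layers A and B was 4 in DESeq2, 1 in the fit of 6 samples and 1 to 3 with a sample left out, and that between layers A and C stayed at 1. F of the Gria4 to Gria2 ratio was 4.62 to 11.6 with a sample left out, that of Gria3 to Gria2 1.88 to 5.74 and that of Gria1 to Gria2 0.041 to 1.38. The cause of the lost and gained calls was not tested.

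Log2 fold changes near 0 changed sign. Between layers B and C, Shisa7 was at -0.0039 with upper-quartile factors and Gria2 at 0.0066 with at least 10 counts in all 9 samples. With a sample left out, values between layers B and C ranged from -0.22 to 0.046 for Gria1, -0.19 to 0.10 for Gria2, -0.054 to 0.29 for Cacng3, -0.18 to 0.42 for Cnih2 and -0.10 to 0.071 for Shisa7. Those of Cnih2 ranged from -0.038 to 0.37 between layers A and B and from -0.036 to 0.62 between layers A and C. With pan-neuronal scaling, the ranges between layers A and B were -0.12 to 0.22 for Gria2, -0.30 to 0.042 for Gria3 and -0.47 to 0.16 for Shisa7, and those between layers A and C were -0.035 to 0.50 for Gria1, -0.18 to 0.22 for Gria2, -0.071 to 0.42 for Cacng2 and -0.22 to 0.052 for Shisa7.

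The layers share replicate numbers, but deviations from the layer mean had a mean correlation of 0.0353 over the 9 same-numbered pairs of samples (-0.186 to 0.243) and -0.0139 over the 18 others, so the numbers were not treated as pairs. With the replicate number as a block, 6, 7 and 0 members were called between layers A and B, A and C, and B and C, as without it. Depth limits layer A most, where counts of 72 and 78 for Cacng3 and Cnih3 in single samples carry the widest counting error.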
